A study of Mus musculus with 6 samples.

Results

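The cyclin-dependent kinase (CDK) inhibitors and the D-type cyclins were followed in N18-Fms cells, a mouse prostate cancer line, before and after stimulation of the CSF-1 receptor. The group holds 10 genes, Cdkn1a, Cdkn1b, Cdkn1c, Cdkn2a, Cdkn2b, Cdkn2c, Cdkn2d, Ccnd1, Ccnd2 and Ccnd3, taken by gene name from the 36163 genes named on the array, and they are measured by 16 probes. RNA was hybridized to 6 single-color Agilent arrays in 3 groups of 2. The Control arrays hold vehicle-treated N18-Fms cells that were not stimulated, and the other arrays hold the same cells after 24 h or 48 h with recombinant mouse CSF-1 at 100 ng/mL. These times are those of the sample labels, while the written methods of the study give shorter ones. Cells of all 3 groups carry mouse c-fms, the gene of the CSF-1 receptor (Csf1r), introduced with a retrovirus and followed by cell sorting. They descend from N18, a neomycin-resistant and luciferase-expressing clone of the TRAMP C2H tumor line, and all were grown in medium with serum and dihydrotestosterone. No array of receptor-free cells is part of the comparison, so a response to CSF-1 and a response that needs the introduced receptor cannot be told apart. The RNA came from 2 independent experiments on 1 cell line, and p-values measure the spread between such cultures.

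D-type cyclins bind CDK4 and CDK6, and the active kinases phosphorylate the retinoblastoma protein, which releases E2F factors and lets a cell pass from G1 into S phase. Their genes are classical targets of growth factor signals. The inhibitors fall into 2 families. The Cip/Kip proteins, encoded by Cdkn1a, Cdkn1b and Cdkn1c, bind cyclin-CDK complexes of several kinds, and the INK4 proteins, encoded by the Cdkn2 genes, bind CDK4 and CDK6 and keep D-type cyclins away from them. In macrophages and their precursors CSF-1 is a growth and survival factor, and in several cell types strong receptor signaling is known to raise the product of Cdkn1a.

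Values are log2 signals with the 75th percentile of each array set to 0, so they describe 1 probe across arrays and are not compared between probes. Between 58.7% and 72.0% of spots were well above background, with the highest shares on the first 24 h array and the second 48 h array, and the first 24 h array was read on another slide than the other 5. Csf1r was read by 3 probes between 4.60 and 5.08, between 4.88 and 5.34 and between 2.95 and 3.62 over the 6 arrays, and none of them passed the test against Control (lowest adjusted p = 0.327, limma). Of 8 epithelial markers, 4 were well above background on all arrays, while Cdh1, the gene of E-cadherin, was so on 0 arrays and Epcam on 1. The summed signal of this list, relative to the 75th percentile, was 0.621 to 0.679 in Control, 0.813 to 0.920 at 24 h and 1.06 to 1.19 at 48 h, and of the 6 tested 0 passed at 24 h and 1, Krt8, was higher at 48 h. Of 13 macrophage markers on the array 8 were above background throughout, and Spi1, Lyz2 and Cd163 on 0 arrays. Their summed signal was 44.0 to 49.4 in Control, 37.7 to 45.1 at 24 h and 33.2 to 42.2 at 48 h, most of it the signal of Itgam. Of the 9 tested, 3 were higher and 0 lower at each time, namely Mrc1 (4.27 and 3.56), Mpeg1 (0.95 and 3.12) and Cd14 (0.87 and 0.69). Of 9 fibroblast markers 7 were above background throughout and Lum and Fap on 0 arrays, with a summed signal of 331 to 333 in Control, 140 to 150 at 24 h and 126 to 168 at 48 h. Of the 7 tested, 4 (Pdgfrb and the collagen genes Col1a1, Col1a2 and Col3a1) were lower at both times, while 2 at 24 h and 1 at 48 h were higher. The part of these cell type markers in the changes described next was not tested. Of 5 endothelial markers 2 were higher at 24 h and 1 at 48 h, and of 4 lymphocyte markers tested 0 passed. With bulk RNA, a change in the share of cells of a kind and a change in RNA per cell cannot be told apart.

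Cdkn1a showed by far the largest change of the group, and the sequence just upstream of its transcription starts is shown first for that reason. The RefSeq promoter table (build GRCm38.p6) matched 7 of the 10 genes, with 11 starts in all, and had no entry for Cdkn1c, Ccnd1 and Ccnd2. It holds 2 starts for Cdkn1a on chromosome 17. The 250 bases before each start are given 5′ to 3′ on the plus strand, with motif matches in capitals.
Cdkn1a upstream start, chr17:29090729-29090978: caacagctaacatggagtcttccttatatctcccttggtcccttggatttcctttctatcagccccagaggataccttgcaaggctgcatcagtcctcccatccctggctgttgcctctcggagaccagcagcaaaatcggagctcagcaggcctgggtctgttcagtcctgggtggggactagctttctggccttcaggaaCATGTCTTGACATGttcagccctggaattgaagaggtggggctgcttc
Cdkn1a downstream start, chr17:29093519-29093768: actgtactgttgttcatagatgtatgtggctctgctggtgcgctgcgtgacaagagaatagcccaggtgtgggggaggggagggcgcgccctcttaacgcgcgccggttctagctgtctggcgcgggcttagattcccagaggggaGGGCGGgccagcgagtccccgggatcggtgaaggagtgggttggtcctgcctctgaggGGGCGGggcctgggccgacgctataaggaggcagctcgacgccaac
The capitals before the upstream start mark the core of a p53 response element, 48 bases before the start. This motif was added after the sequence had been seen, and 0.490% of the 32851 promoters in the table hold it. The brightest Cdkn1a probe, described below, lies at base 1619 of its transcript. Which of the 2 starts gave the RNA it read was not tested. The capitals before the downstream start mark the Sp1 letters GGGCGG at 104 and 46 bases before it, which 32.7% of all promoters hold on either strand. Cdkn2c was the only other inhibitor that passed the test as higher, at 24 h alone. It has 2 starts on the minus strand of chromosome 4, and the second carries GGGCGG at 95, 51 and 40 bases before it.
Cdkn2c first start, chr4:109665373-109665622: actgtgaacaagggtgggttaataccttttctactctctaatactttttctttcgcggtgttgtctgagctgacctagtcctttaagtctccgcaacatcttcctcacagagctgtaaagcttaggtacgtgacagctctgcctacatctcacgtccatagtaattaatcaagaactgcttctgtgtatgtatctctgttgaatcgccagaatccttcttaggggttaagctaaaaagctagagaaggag
Cdkn2c second start, chr4:109666757-109667006: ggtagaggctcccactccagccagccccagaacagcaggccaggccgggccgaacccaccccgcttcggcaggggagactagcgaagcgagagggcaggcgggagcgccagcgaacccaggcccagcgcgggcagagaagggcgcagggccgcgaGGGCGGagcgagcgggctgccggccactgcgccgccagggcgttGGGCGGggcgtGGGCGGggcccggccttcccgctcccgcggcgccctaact
Over the 11 windows of the group, GGGCGG was found in 7, the E2F letters TTTNGCGC in 1 of Cdkn2a and the CRE letters TGACGTCA in 1, that of Cdkn2b. These are held by 1.13% and 1.55% of all promoters. The letters of GAS (TTCNNNGAA), which STAT factors bind, of the ISRE, of AP-1 (TGANTCA) and the E-box (CACGTG) were found in 0 of the 11 windows, on either strand, against 7.02%, 2.98%, 6.75% and 6.02% of all promoters. No 2 of the motifs searched overlapped in the windows printed.

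Cdkn1a, which encodes the Cip/Kip inhibitor p21, was strongly upregulated by CSF-1 at both times. Its brightest probe lies at chr17:29237377-29237436 (build mm9) on the transcript NM_007669 and is printed as 10 spots on each array. It read -3.95 and -3.38 on the Control arrays, 0.75 and 1.09 on the 24 h arrays and -0.19 and -0.07 on the 48 h arrays. Both stimulated groups were thus far above Control, and the 48 h arrays lay between the other groups. The increase at 24 h was 4.59 on the log2 scale (SE 0.228, adjusted p = 0.00145, limma, adjusted by Benjamini-Hochberg across every gene tested), or 24.1-fold with a 95% interval of 16.2 to 35.8. At 48 h it was 3.53 (SE 0.228, adjusted p = 0.0019), or 11.6-fold with an interval of 7.79 to 17.3. With normexp background correction, which raises low signals by an offset, the changes were smaller, 3.26 at 24 h (9.61-fold) and 2.32 at 48 h (4.98-fold), both past the test. Among the 24643 genes tested, Cdkn1a ranked 61st from the top by its increase at 24 h and 173rd at 48 h. Within an array its 10 spots varied little, with an SD of 0.269 and 0.150 in Control and between 0.046 and 0.074 in the stimulated cells.

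Other Cdkn1a probes gave a weaker picture. The probe of the second RefSeq variant, NM_001111099, lies further upstream at chr17:29227986-29228045 (mm9) and is a single spot. It read -4.56 and -4.83 in Control, where the second array was not well above background, -3.60 and -3.33 at 24 h and -3.93 and -3.79 at 48 h. The groups kept the order of the main probe and did not overlap. In a limma fit on every probe the difference was 1.23 at 24 h (adjusted p = 0.0133) and 0.83 at 48 h (adjusted p = 0.0353). The 24 h call was lost in 5 of 16 other settings, and the 48 h difference passed the threshold in only 1 of them. With normexp background correction the differences were 0.51 and 0.28. A further probe, for the Ensembl transcript ENSMUST00000122348, was well above background only on the second Control array, with -3.02 there and -6.78 to -4.90 elsewhere, and was not tested. Averaging the 3 probes, the dim Ensembl one among them, lowered the change to 1.72 at 24 h (adjusted p = 0.059, limma) and 1.09 at 48 h (adjusted p = 0.168). The call for the gene was thus lost with this average, although the brightest probe passed alone. The variant 2 probe was well above background on both arrays of the stimulated groups only. It entered the test through the groups where it was high, so its call at 24 h is no separate support. Without a filter on dim probes its adjusted p at 24 h was 0.0576 (limma). The size of the change given for the gene is that of its brightest probe.

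**Figure D1:**
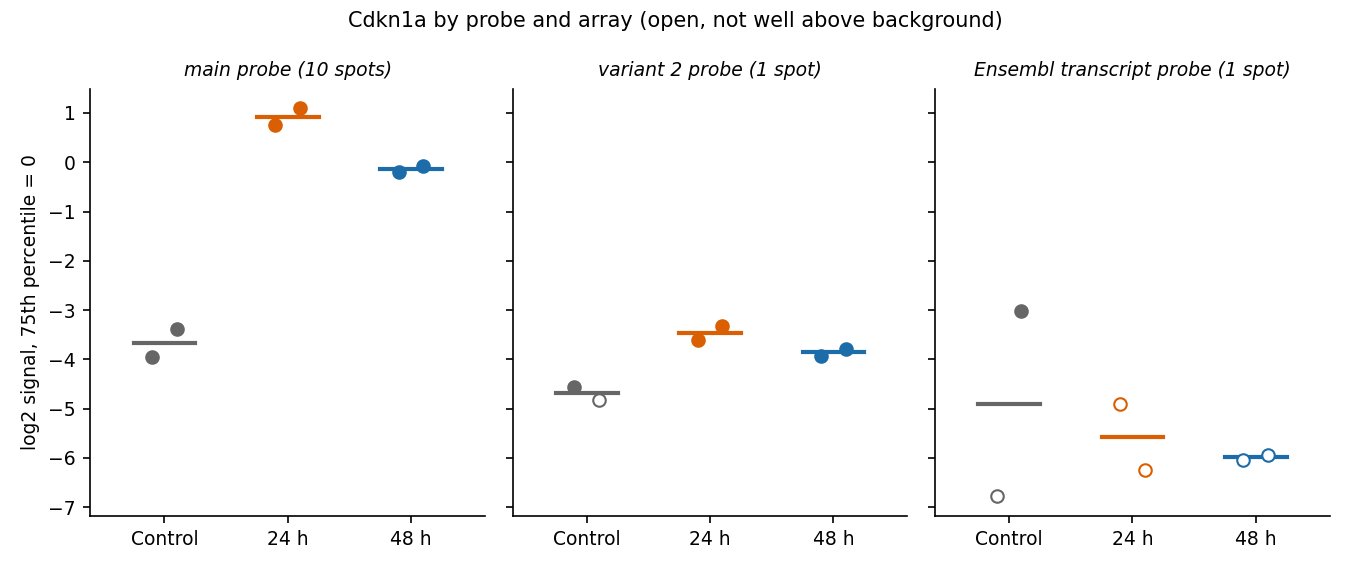
Log2 signal of the 3 Cdkn1a probes on each array, relative to the 75th percentile of the array (vertical axis), by group (horizontal axis). Points are arrays, open where the spot was not well above background, and lines are means of 2 arrays; the main probe rises from below -3.3 in Control to above 0.7 at 24 h, the variant 2 probe by 1.23, and the Ensembl transcript probe is above background on 1 array.

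The other Cip/Kip genes did not pass the test. Cdkn1b, which encodes p27, read 2.89 and 2.73 in Control, 2.45 and 2.52 at 24 h and 2.75 and 2.67 at 48 h. The 24 h arrays were lower than both Control arrays and the 48 h arrays overlapped with them. The difference was -0.32 at 24 h (95% interval -0.61 to -0.03, adjusted p = 0.128) and -0.10 at 48 h (-0.39 to 0.19, adjusted p = 0.637), and a second probe gave -0.13 and -0.09. Cdkn1c, which encodes p57, was well above background only on the first 24 h array and the second 48 h array, the 2 arrays with the most spots above background. It read -4.92 and -4.55 in Control, -3.45 and -4.93 at 24 h and -5.72 and -4.25 at 48 h, so the groups overlapped, and it was not tested.

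Among the INK4 genes, Cdkn2c, which encodes p18, was higher at 24 h. It read 1.81 and 1.85 in Control, 2.48 and 2.48 at 24 h and 2.02 and 2.17 at 48 h. The increase at 24 h was 0.65 (SE 0.112, adjusted p = 0.0228), or 1.57-fold, and at 48 h the value was 0.27 (adjusted p = 0.182), although both arrays still lay above both Control arrays. The 24 h call was lost when either Control array (adjusted p = 0.092 and 0.094) or either 24 h array (adjusted p = 0.104 and 0.0964) was left out, and with arrays centered on their median the value was 0.35 (adjusted p = 0.186).

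Cdkn2a, the locus of p16 and of the p53 activator Arf, was read by 2 probes that both match its transcripts NM_009877 and NM_001040654, so these products were not separated. The brighter probe read 5.54 and 5.71 in Control, 5.28 and 5.29 at 24 h and 5.61 and 5.74 at 48 h. The 24 h arrays were the lowest and the 48 h arrays overlapped with Control. The difference was -0.34 at 24 h (adjusted p = 0.125) and 0.05 at 48 h (95% interval -0.25 to 0.35, adjusted p = 0.809), and the other probe gave -0.28 and 0.10.

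Cdkn2b, its neighbor on chromosome 4, which encodes p15, a known target of TGF-β signaling, read 3.26 and 3.14 in Control, 3.08 and 2.83 at 24 h and 3.30 and 3.09 at 48 h. The difference was -0.24 at 24 h (adjusted p = 0.332), and at 48 h it had an interval of -0.37 to 0.36 (adjusted p = 0.989). Cdkn2d, which encodes p19, read 3.08 and 3.04 in Control, 3.19 and 3.43 at 24 h and 2.85 and 2.92 at 48 h. The 24 h arrays were above and the 48 h arrays below both Control arrays, with differences of 0.25 (adjusted p = 0.260) and -0.18 (adjusted p = 0.405), of which the first turned to -0.056 with arrays centered on their median. Neither passed the test.

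**Figure D2:**
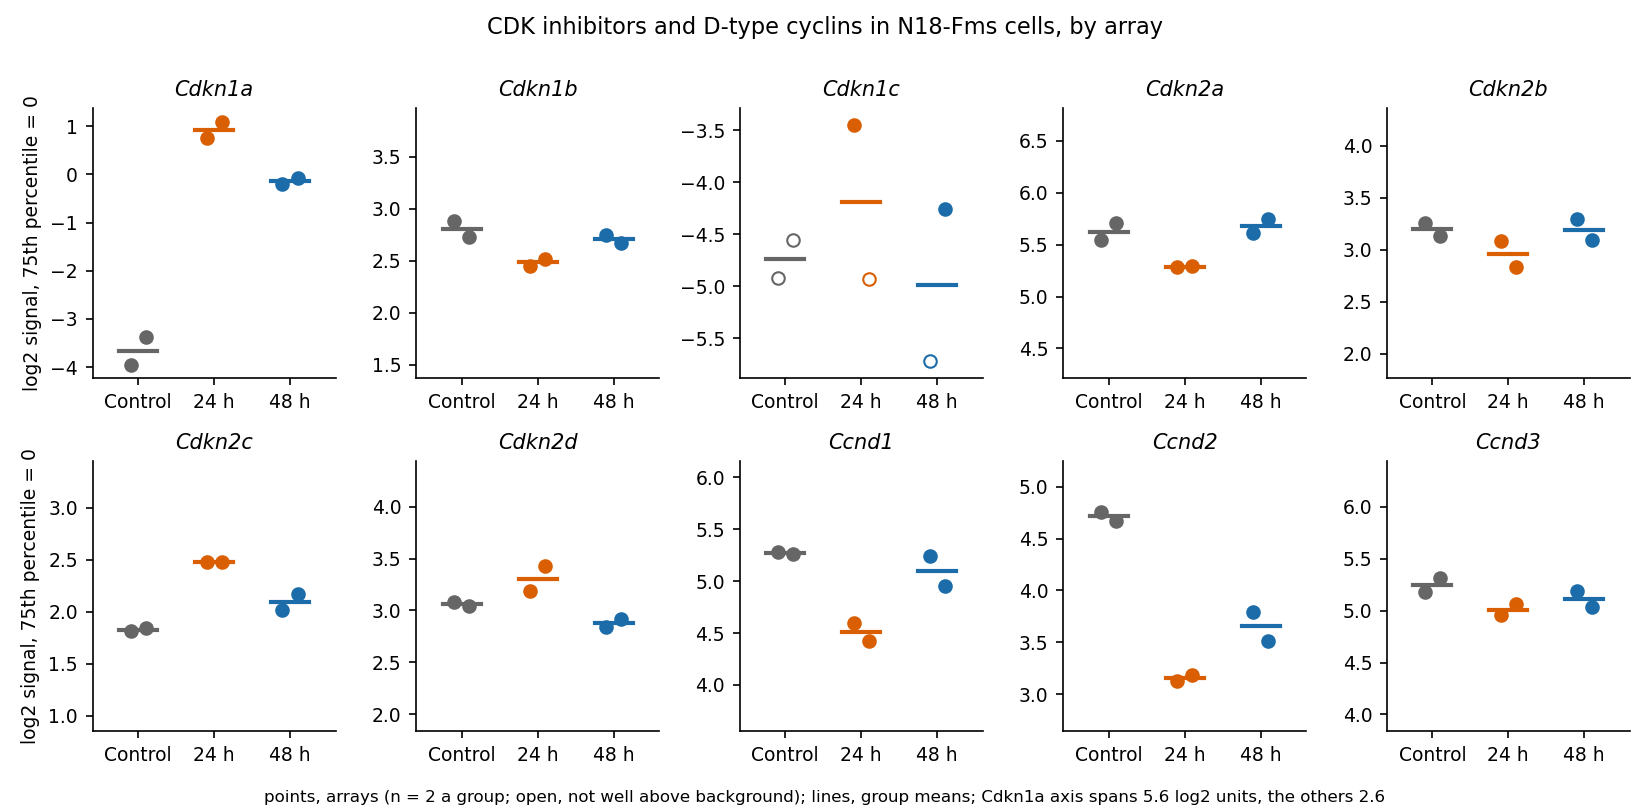
Log2 signal relative to the 75th percentile of the array (vertical axis) for the brightest probe of each of the 10 genes, in the Control, 24 h and 48 h groups. Points are arrays, open where not well above background, and lines are means of 2 arrays. Cdkn1a has an axis of wider span than the other panels. The arrays of both stimulated groups all lie above Control for Cdkn1a and Cdkn2c and below it for Ccnd1 and Ccnd2. At 48 h Cdkn2c and Ccnd1 did not pass the test, and groups did not overlap with Control for 59.0% of all genes at 24 h and 58.8% at 48 h.

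Of the D-type cyclins, cyclin D2 and cyclin D1 were downregulated. Ccnd2, which encodes cyclin D2, fell at both times. Its probe (chr6:127098696-127098755, mm9) read 4.76 and 4.67 in Control, 3.12 and 3.19 at 24 h and 3.79 and 3.52 at 48 h. The decrease at 24 h was -1.56 (SE 0.136, adjusted p = 0.0044), a level 2.95-fold lower than in Control with a 95% interval of 2.33 to 3.74, and it was the 176th largest decrease among the genes tested. At 48 h the change was -1.06 (SE 0.136, adjusted p = 0.0112), or 2.09-fold lower with an interval of 1.65 to 2.64. The 48 h call was lost without the first Control array (adjusted p = 0.0692), the second Control array (adjusted p = 0.0578) or the second 48 h array (adjusted p = 0.0539), with changes of -1.02, -1.11 and -0.92.

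Ccnd1, which encodes cyclin D1, was lower at 24 h. It read 5.28 and 5.26 in Control, 4.60 and 4.43 at 24 h and 5.24 and 4.95 at 48 h. The 24 h arrays were clearly the lowest, and the 48 h arrays were close to Control. The change was -0.76 at 24 h (SE 0.143, adjusted p = 0.0292), or 1.69-fold lower, and -0.17 at 48 h (adjusted p = 0.484). The 24 h call was lost without either Control array (adjusted p = 0.108 and 0.117) or either 24 h array (adjusted p = 0.0873 and 0.120). Ccnd3, which encodes cyclin D3, read 5.18 and 5.32 in Control, 4.96 and 5.06 at 24 h and 5.19 and 5.04 at 48 h, with differences of -0.24 (adjusted p = 0.265) and -0.13 (95% interval -0.44 to 0.18, adjusted p = 0.530), and its other probe gave -0.21 and -0.12. The values of all 3 cyclin genes were below 0 at both times in each of the 18 other settings tried, including the other scalings, and Ccnd3 passed the test in none of them.

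**Figure D3:**
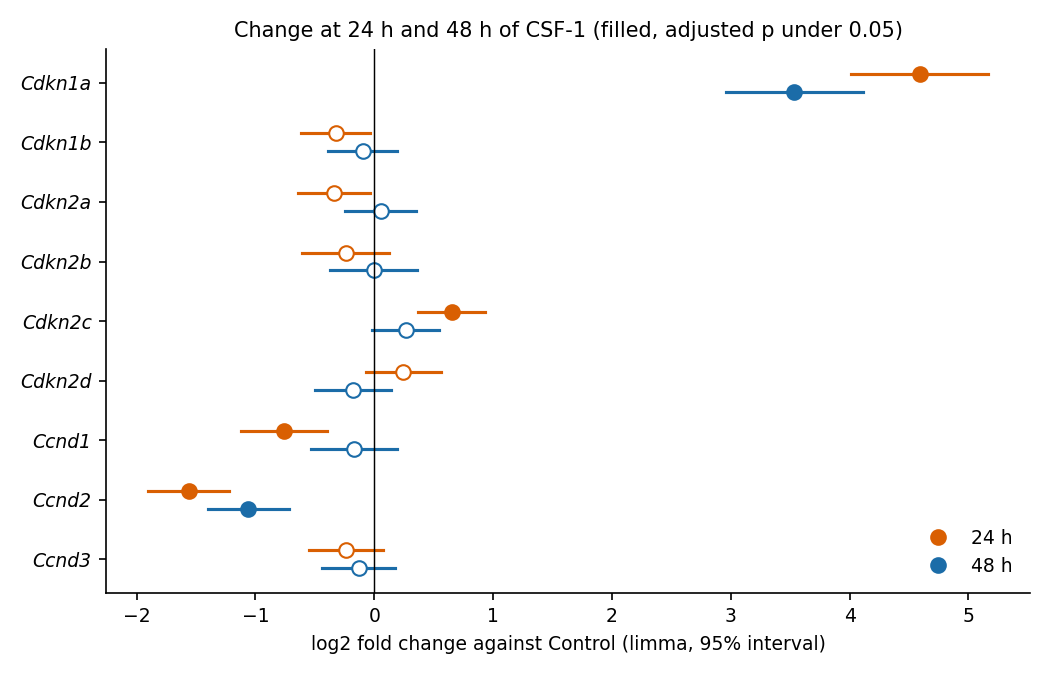
Log2 fold change against Control (horizontal axis) at 24 h and 48 h for the 9 genes tested, with 95% intervals of the limma fit. Filled points have an adjusted p under 0.05; Cdkn1a stands at 4.59 and 3.53, Ccnd2 at -1.56 and -1.06, Cdkn2c at 0.65 and Ccnd1 at -0.76 at 24 h, and the intervals of the open points reach 0 or end close to it.

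In all, 9 of the 10 genes were tested. At 24 h 4 of them had an adjusted p under 0.05, against 14.0% of all 24643 genes, with 2 higher (Cdkn1a and Cdkn2c, background 8.02%) and 2 lower (Ccnd1 and Ccnd2, background 5.99%). At 48 h 2 had one, against 14.0% of all genes, with Cdkn1a higher (background 6.58%) and Ccnd2 lower (background 7.38%). Under the rule of an unadjusted p under 0.05 and a change of at least 2-fold, Cdkn1a and Ccnd2 passed at 24 h (background 7.68%) and again at 48 h (background 6.48%). The groups did not overlap for 9 genes at 24 h and 5 at 48 h, but this also held for 59.0% and 58.8% of all genes. The median change of the 9 genes was -0.24 at 24 h and -0.10 at 48 h, beside 0.04 and -0.04 over all genes. Both times were compared with the same Control arrays. Calls over all genes at 24 h were 1977 higher and 1476 lower, and this split depended on the scaling, with 1154 higher and 3774 lower when arrays were centered on their median and 2071 higher and 2340 lower after normexp background correction. The split was also 968 and 351 without a filter on dim probes.

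The 48 h means of all 9 genes lay nearer to Control than the 24 h means, but no difference between the times passed the adjusted test. Of all genes 0% had an adjusted p under 0.05 in limma, while 3355 genes, among them 6 of the 9, had an unadjusted p under 0.05. With the methods' t-test 0 genes passed after adjustment and 2585, among them 4 of the 9, before it. The difference of Cdkn1a, 48 h minus 24 h, was -1.05 (unadjusted p = 0.00476, adjusted p = 0.177, limma), and Cdkn1a was the only one of the 9 that passed the 2-fold rule, against 2.27% of all genes. With normexp background correction its adjusted p was 0.024, and over the 18 other settings it ranged from there to 0.541. The same difference was 0.59 for Ccnd1 (adjusted p = 0.203), 0.50 for Ccnd2 (adjusted p = 0.234) and 0.39 for Cdkn2a (adjusted p = 0.263). It was -0.39 for Cdkn2c (adjusted p = 0.254) and -0.42 for Cdkn2d (adjusted p = 0.260). For 8 of the 9 genes the 24 h and 48 h arrays did not overlap, as for 47.9% of all genes.

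Genes that work with these proteins were taken from 3 lists. Of the G1/S machinery (the kinases, cyclins E and A, the retinoblastoma family and the E2F factors), 22 of 24 genes were tested, 9 were lower and 0 higher at 24 h, and 8 were lower and 0 higher at 48 h, with medians of -0.33 and -0.39. Over all genes 5.99% and 7.38% were lower and the medians were 0.04 and -0.04. With arrays centered on their median, 12 and 8 were lower. Cdk6, the kinase partner of D-type cyclins, read -0.46 and -0.53 in Control, -1.46 and -1.28 at 24 h and -1.56 and -1.52 at 48 h. It fell by 0.88 (adjusted p = 0.0117) and 1.05 (adjusted p = 0.00774) on the log2 scale. Its relative Cdk4 had values of -0.27 (adjusted p = 0.169) and -0.24 (adjusted p = 0.220). Ccna2, which encodes cyclin A2, fell by 0.74 (adjusted p = 0.0287) and 1.05 (adjusted p = 0.0122). Mnat1, a subunit of the kinase that activates CDKs, fell by 0.86 (adjusted p = 0.0221) and 0.77 (adjusted p = 0.0303).

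Of the S phase and E2F target genes 24 of 25 were tested, 5 were lower and 0 higher at 24 h, and 10 were lower and 0 higher at 48 h, with medians of -0.37 and -0.55, beside the same shares and medians of all genes. The counts depended on the scaling, with 12 lower at 24 h and 5 at 48 h when arrays were centered on their median, 5 and 6 with quantile normalization and 9 and 14 with normexp background correction. Tk1, the thymidine kinase of S phase, read 5.95 and 5.83 in Control, 4.77 and 4.87 at 24 h and 4.86 and 4.75 at 48 h, with both stimulated groups below Control. It fell by 1.07 (adjusted p = 0.00742) and 1.08 (adjusted p = 0.00702). Mcm5, part of the replicative helicase, fell by 0.78 (adjusted p = 0.0216) and 0.88 (adjusted p = 0.0167), and Pola1, a subunit of DNA polymerase alpha, by 0.68 (adjusted p = 0.016) and 0.78 (adjusted p = 0.0115). With any 1 of the 6 arrays left out, fewer genes of either list were called lower than with all 6. This also held where the array was in neither group compared. Each such fit has fewer residual degrees of freedom. Over these fits Pola1 stayed between -0.68 and -0.67 and Ccna2 between -0.86 and -0.61 at 24 h. At 48 h Mnat1 stayed between -0.90 and -0.64. Tk1 kept its call at both times without any 1 array, while Cdk6 lost it at 24 h without either Control array or the first 24 h array (adjusted p = 0.0592 to 0.0627) and at 48 h without the first Control array (adjusted p = 0.0529). Ccna2, Mnat1, Mcm5 and Pola1 lost theirs at 24 h without any 1 of the Control and 24 h arrays (adjusted p = 0.0594 to 0.126), Ccna2 also without either 48 h array (adjusted p = 0.0514). At 48 h Mcm5 and Pola1 lost theirs without any 1 of the Control and 48 h arrays, Ccna2 without either Control array or the second 48 h array, and Mnat1 without any 1 of the 6 arrays (adjusted p = 0.0562 to 0.134).

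Of known regulators of the inhibitors and of D-type cyclins, 39 of 43 were tested. At 24 h 6 were higher and 3 lower, at 48 h 6 were higher and 4 lower, and the medians of 0.06 and 0.05 were close to those of all genes, 0.04 and -0.04. Over all genes 8.02% and 6.58% were higher and 5.99% and 7.38% lower. The balance depended on the scaling, with 5 higher and 8 lower at 24 h when arrays were centered on their median, and 8 higher and 6 lower at 24 h and 6 higher and 8 lower at 48 h with normexp background correction. Stat5a, a transcription factor downstream of cytokine receptors, read -3.61 and -3.52 in Control, -0.0019 and 0.07 at 24 h and -1.47 and -0.89 at 48 h. It rose by 3.60 (adjusted p = 0.00176) and 2.39 (adjusted p = 0.00393), with the 48 h arrays between the other groups as for Cdkn1a. Fos, a subunit of AP-1, rose by 2.93 (adjusted p = 0.00835) and 2.10 (adjusted p = 0.0197), and Tgfb1, a cytokine known to induce Cdkn2b in epithelial cells, by 1.53 (adjusted p = 0.0047) and 1.73 (adjusted p = 0.00313). With normexp background correction the changes of Stat5a were 2.48 and 1.46 and those of Fos 1.68 and 1.07, all past the test. Cdk4 and the genes named from here on in the paragraph were picked after the values had been seen. Stat3 rose as well, by 1.35 (adjusted p = 0.0129) and 1.04 (adjusted p = 0.0256). Of the TGF-β receptor genes, Tgfbr2 fell by 0.62 at 24 h (adjusted p = 0.0263, limma) and had -0.45 at 48 h (adjusted p = 0.058). Tgfbr1 had values of 0.43 (adjusted p = 0.0947, limma) and 0.54 (adjusted p = 0.0552). The gene of p53, Trp53, had values of -0.05 (adjusted p = 0.832) and -0.15 (adjusted p = 0.465), and Mdm2, a target and inhibitor of p53, of 0.47 (adjusted p = 0.0772) and 0.31 (adjusted p = 0.189). Skp2, which marks the products of Cdkn1a and Cdkn1b for degradation, had -0.58 at 24 h (adjusted p = 0.061) and fell by 0.83 at 48 h (adjusted p = 0.0262). Myc had -0.37 (adjusted p = 0.109) and -0.32 (adjusted p = 0.149). Among other regulators called at both times, Tbx3 rose by 1.16 (adjusted p = 0.00569, limma) and 0.99 (adjusted p = 0.00779). Bmi1 fell by 0.59 (adjusted p = 0.0318, limma) and 0.54 (adjusted p = 0.0397). Stat5a and Tgfb1 kept their calls without any 1 array, and Fos lost its own at 24 h without the second Control array (adjusted p = 0.0554) and at 48 h without either Control array or the second 48 h array (adjusted p = 0.0685 to 0.0966). With 1 array left out, 4 or 5 of these regulators were higher at 24 h and 2 to 4 at 48 h, and at most 1 and 2 were lower.

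**Figure D4:**
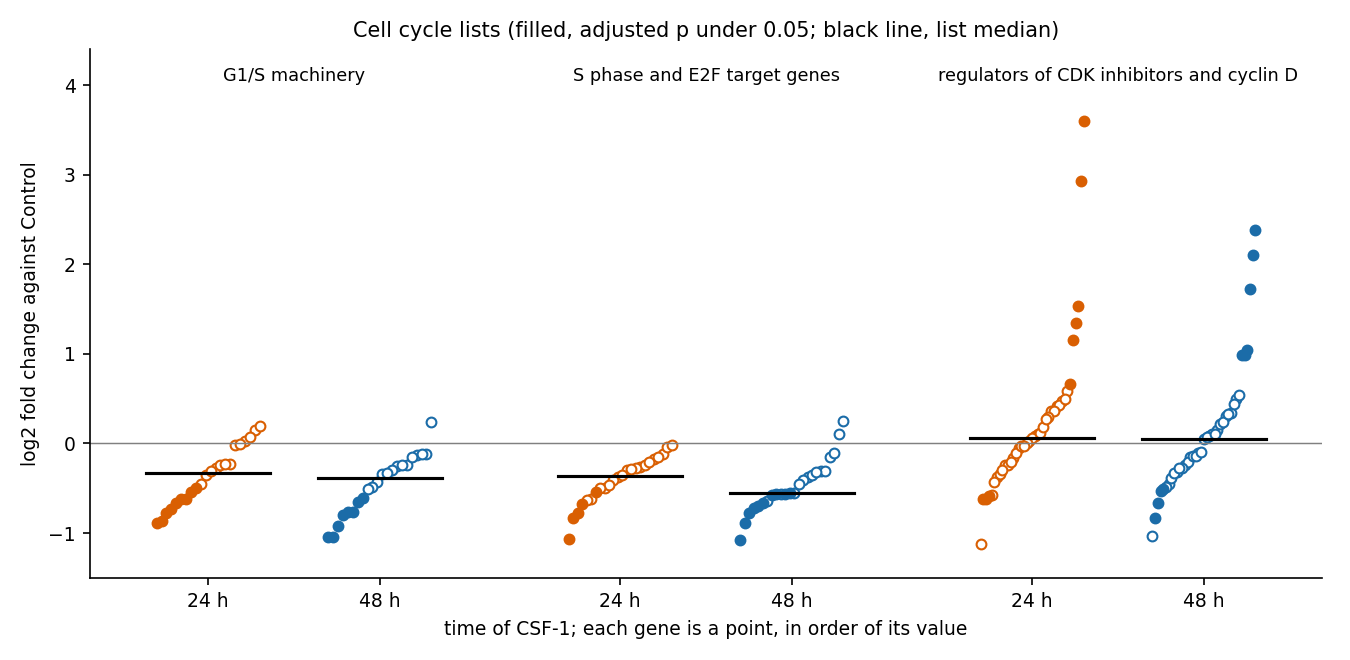
Log2 fold change against Control (vertical axis) of each gene tested in the 3 lists at 24 h and 48 h (horizontal axis). Each point is a gene, filled where the adjusted p is under 0.05, and black lines are list medians; the G1/S and S phase lists have filled points only below 0, while the list of regulators has medians of 0.06 and 0.05 with Stat5a at 3.60 and 2.39 at its top.

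The genes whose levels followed Cdkn1a most closely were sought by Pearson's correlation over the 6 arrays, among 21311 genes above background on all of them. This is a description across 6 arrays in 3 treatment groups, with the first 24 h array on another slide than the other 5. The highest values belonged to Zbtb33 (r = 0.9992), which encodes the methyl-CpG-binding protein Kaiso, Bcl3 (r = 0.9990), a member of the IκB family, and Sema7a (r = 0.9987), which encodes a membrane-anchored semaphorin, and 81 genes exceeded an r of 0.99. The sizes differed widely. Sema7a read -4.31 and -3.27 in Control, 1.99 and 2.81 at 24 h and 0.81 and 1.08 at 48 h, a difference of 6.19 and 4.73, and Bcl3 differed from Control by 3.55 and 2.84. Zbtb33, by contrast, moved only from 0.25 and 0.28 in Control to 0.46 and 0.49 at 24 h and 0.43 and 0.43 at 48 h.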

How the data were processed

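Each array was scanned and read with Feature Extraction 11.0.1.1 per the file headers, and the authors deposited the background-subtracted spot intensity, not normalized between arrays, with the mean and local background intensity of each spot. The authors also deposited log2 values of part of the probes, with a column median between -0.04 and 0.17, and their centering is not stated. To compare them with the log2 intensity, each probe was centered on its mean over the arrays. The median discrepancy of each array was then removed. After this alignment 99.8% of the values lay within 0.05 of each other, so shifts of a whole array were not compared.

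Control and outlier spots were left out, and log2 intensities, shifted so that each array's 75th percentile is 0, were averaged over spots of a probe. The brightest probe stood for each gene, and 24643 genes were flagged as above background by the software in both replicates of some group. These were compared in 1 fit (limma 3.58.1, R 4.3.3, 2-sided, Benjamini-Hochberg, threshold 0.05). Residual degrees of freedom were 3 and prior ones 2.39. Simulated data were also run through the fit, with changes larger than most of those above, so they say little on smaller changes. Gene names are those of the array files; 2 list genes were not found, and 1 marker is not reported here. The number of arrays limits the precision.

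Members, lists and motifs were chosen with earlier results of these data known. The genes named by rule are all 10 members, the 3 genes of each list with the largest mean change among those passing the test, and the 3 most correlated with Cdkn1a; other pathway genes named were picked after their values were seen, beside markers and Csf1r. Replicate arrays had 0 identical values. Other scalings, filters, tests, slide and replicate blocks and left-out arrays were tried.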

Additional observations from a re-analysis of the deposited data

Results flagged for a closer look

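Cdkn2d, the gene of the INK4 inhibitor p19, stood out because both 24 h arrays lay above and both 48 h arrays below the Control arrays. The difference between the times, 48 h minus 24 h, was -0.42 on the log2 scale (unadjusted p = 0.0181, adjusted p = 0.260, limma) and did not pass the adjusted test. With arrays centered on their median, the 24 h value against Control was -0.056 in place of 0.25, so the opposite directions depended on the scaling.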

How the results depend on the processing

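Cdkn1a and Ccnd2 at 24 h kept their call without any 1 array, with values of 4.31 to 4.87 and of -1.60 to -1.52; Cdkn1a did so at 48 h as well. The number of the 9 genes called fell from 4 to 2 at 24 h without a filter on dim probes. There Cdkn2c (adjusted p = 0.0752, limma) and Ccnd1 (adjusted p = 0.0858) lost their calls. At 48 h the number fell from 2 to 1 without the filter (Ccnd2, adjusted p = 0.0508) or with the mean of a gene's probes (Cdkn1a). Slide as a block was the same fit as leaving out the first 24 h array, which alone was on its slide. It is thus no separate check among the 18 settings, and gave 0.65 for Cdkn2c and -0.84 for Ccnd1 at 24 h. The methods' t-test called 0 genes at 24 h and 0 at 48 h after adjustment, with adjusted p of 0.141 and 0.138 for Cdkn1a and 0.133 and 0.162 for Ccnd2. Without 1 array the counts were 2 to 4 at 24 h, 1 to 2 at 48 h and 0 between the times. Normexp background correction called 1 gene, Cdkn1a, between 24 h and 48 h. Quantile normalization ended the call of Ccnd1 at 24 h (adjusted p = 0.0699).

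Centering arrays on their median moved the median of all genes to -0.27 at 24 h and -0.15 at 48 h, and called Cdkn1b (-0.62, adjusted p = 0.0412) and Cdkn2b (-0.54, adjusted p = 0.0425) lower at 24 h, while Cdkn2c lost its call. An intensity trend in the prior spread called Cdkn2a lower at 24 h (adjusted p = 0.0452). Cdkn2d at 24 h, 0.25 in the main fit, changed direction to -0.056 with median centering. The other values that changed direction were near 0 in the main fit, between -0.10 and 0.05. Cdkn2a at 48 h became -0.049 with median centering. At 48 h Cdkn1b was 0.017 and Cdkn2b 0.10 with quantile normalization, and Cdkn2b 0.0081 in the log2 values deposited by the authors. At 48 h without the first Control array Cdkn2b was 0.058 and Cdkn2a -0.030, and without the second 48 h array they were 0.097 and -0.011, and over all left-out arrays Cdkn2b ranged from -0.11 to 0.10. The cause was not tested.

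Replicate numbers do not mark a shared experiment in the labels, so no pairing was assumed. The correlation of the differences between replicate arrays was low but above 0 in each pair of groups, at 0.13, 0.09 and 0.20. Whether arrays with the same replicate number share an experiment was not tested. With the replicate number as a block, 4 of the 9 genes were called at 24 h, 2 at 48 h and 0 between the times, as without it. Over all genes 3801, 3966 and 0 were called with the block, against 3453, 3440 and 0 without it. The call of the variant 2 probe of Cdkn1a at 48 h was lost (adjusted p = 0.0524). Calls over all genes were 899 to 2538 at 24 h and 889 to 2114 at 48 h without 1 array, and 0 in both by the methods' t-test, against 5402 and 5484 at an unadjusted p under 0.05.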
